A study of Rattus norvegicus with 12 samples.

Results

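The YAP target set is a list of 9 rat genes whose transcription is known to follow the coactivator YAP: Ccn1, Ccn2, Amotl1, Amotl2, Ankrd1, Ajuba, Lats2, Dlc1 and Axl. For each gene the array row that the platform annotation pairs with that gene alone was used. Of the 9, 8 had such a row, among 18166 genes in all, and each of the 8 had 1 row. Expression of Amotl1 was not analysed here. The set was chosen by known membership of the pathway with measured values of these arrays in view, in which Ccn1 stood out with GW; which values decided each member is not recorded. Values for the addition of GW are therefore given as a description, without a test.

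The 12 arrays came from primary astrocytes of the cerebral cortex of Sprague-Dawley rats 1 day old. The cells were kept in serum-free medium for 2 days to remove microglia and meningeal cells, and treatment lasted 3 h. All cells were transfected with a siRNA, so every group carries one, and there were 3 arrays per group. The groups were SHP siRNA with IFN-γ and GW (siSHP_IFNg_GW), control siRNA with IFN-γ and GW (siCon_IFNg_GW), control siRNA with IFN-γ (siCon_IFNg) and control siRNA alone (siCon). GW is a compound the labels give by that name alone. No group received GW without IFN-γ, so that what GW does by itself was not measured. Titles number the arrays 1 to 3 within each group, and no label says that numbers are separate cultures; the p-values therefore reflect differences from one array to another, some of which may be technical. The series text says that 4 arrays were taken over from an earlier series, without saying which. Values are log2 expression as deposited.

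YAP and its relative TAZ are coactivators that carry no DNA-binding domain and reach DNA through TEAD transcription factors. The Hippo kinases, ending in LATS1 and LATS2, phosphorylate them and hold them in the cytoplasm, while cell spreading and actin tension release them. Several target genes act back on the pathway: LATS2 is itself a YAP kinase, angiomotins such as AMOTL2 bind YAP and keep it out of the nucleus, and the LIM protein AJUBA restrains LATS. In astrocytes, YAP is known for roles in proliferation and in reactive states. Ccn1 and Ccn2 are also turned on quickly by growth factors and by SRF and AP-1, so they are not readouts of YAP alone.

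Promoters are shown for the pair of CCN genes, because both are standard YAP reporters and their levels did not follow the same order over the groups. Sequences are from RefSeq on rat assembly GRCr8. Of the 9 genes, 6 had a start in the promoter table, and 5 of these were measured. The 250 bases before each start follow, 5′ to 3′ on the strand of the gene, with capitals marking the TEAD motif GGAATG or its complement CATTCC. Ccn1 lies at chr2:237225690-237225939 and Ccn2 at chr1:22624615-22624864, both on the minus strand.
Ccn1: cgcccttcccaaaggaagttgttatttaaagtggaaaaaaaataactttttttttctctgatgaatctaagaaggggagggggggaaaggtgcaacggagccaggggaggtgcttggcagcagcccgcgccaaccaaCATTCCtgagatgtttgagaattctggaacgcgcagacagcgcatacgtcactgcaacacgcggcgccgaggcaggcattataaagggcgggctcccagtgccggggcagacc
Ccn2: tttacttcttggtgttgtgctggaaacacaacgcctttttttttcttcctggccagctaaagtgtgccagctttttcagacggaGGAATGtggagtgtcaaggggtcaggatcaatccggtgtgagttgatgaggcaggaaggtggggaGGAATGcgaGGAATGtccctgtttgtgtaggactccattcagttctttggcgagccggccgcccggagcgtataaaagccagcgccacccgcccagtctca

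Ccn2 held 3 matches, whose first bases lie 166, 101 and 92 bases before the start. Ccn1 held 1 match on the opposite strand, 113 bases before the start. Amotl2 and Ajuba held 1 match each, shown with its flanks to set beside those of Ccn1. The Amotl2 stretch is chr8:112182538-112182567 on the plus strand, 76 bases before the listed start. That start lies inside the span of the gene (chr8:112182060-112198032), and the bases before the outermost start of Amotl2 were not examined. The Ajuba stretch is chr15:32000261-32000290 on the minus strand, 236 bases before the listed start of Ajuba.
Amotl2: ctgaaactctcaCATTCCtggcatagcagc
Ajuba: tgcccctccgcaCATTCCaactgtaaacaa
Axl had no match. Its listed start also lies inside the span of the gene (chr1:90392864-90424123), and the bases before its outermost start were not examined. Thus 4 of the 5 measured genes with a listed start held the motif on either strand. Of all 33469 starts, counted singly and not by gene, 12.1% held it, and 27 starts (0.081%) held 3 or more. The AP-1 motif TGANTCA, found before 6.3% of all starts, and the CArG box that SRF binds, found before 1.5%, were present in 0 of these 5 windows, so no TEAD match overlapped either. Amotl1, the gene with listed starts that was not measured, held 0 TEAD matches before each of its starts. Some of its starts had an AP-1 match. With it, 4 of 6 genes with a listed start held the TEAD motif. A match describes the letters of this window and no more.

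Quality of the arrays bears on the results in 3 ways. The column medians over named genes ran from 6.49 to 6.58, and arrays numbered 1 stood apart from numbers 2 and 3, so differences are also given within each number. As a background level, the 95th percentile of 1344 genes for smell and pheromone receptors was taken, which was 5.34. Nr0b2, which encodes SHP, lay under it on every array, at 5.12, 4.94 and 4.81 in siSHP_IFNg_GW against 4.70, 4.78 and 4.91 in siCon_IFNg_GW, so the siRNA labels could not be checked on these arrays. Of 12 astrocyte markers measured, 0 lay under that background. Microglia markers were present too, with 0 of 16 under that background, and their summed level on the linear scale was 6846 to 8915 in siSHP_IFNg_GW, 6659 to 8082 in siCon_IFNg_GW, 9276 to 11580 in siCon_IFNg and 9058 to 14566 in siCon. The summed level of 11 meningeal and vascular markers split by number. It was 2060 to 2667 on the 4 arrays numbered 1 and 5665 to 6922 on the others, with 3 of the 11 under background. Other marker sums also differed by number. Oligodendrocyte sums were 1627 to 1824 on the arrays numbered 1 and 2345 to 2983 on the others. Astrocyte sums were 16286 to 18820 and 19549 to 21968 in the same order. Sums of microglia and of neuron markers were highest on number 1 within every group. Fewer cells of a type and less RNA per cell cannot be told apart in these samples.

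Ccn1 encodes a secreted matricellular protein that binds integrins. It stood at 11.68, 11.76 and 11.39 in siCon_IFNg_GW, against 8.95, 8.59 and 9.04 in siCon_IFNg. The gene spans chr2:237222730-237225689 (GRCr8). All 3 arrays with GW were higher than all 3 without it, by a wide margin. The difference was 2.75 ± 0.29 (SE, n = 3 per group), 6.74-fold, with 2.73, 3.17 and 2.36 in numbers 1, 2 and 3.

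Ccn2, its close relative and a profibrotic matrix signal, was at 8.77, 9.39 and 9.44 in siCon_IFNg_GW, against 8.56, 7.52 and 7.78 in siCon_IFNg. The gene lies at chr1:22621498-22624614. The groups did not overlap, but number 1 hardly differed. The difference was 1.24 ± 0.26, made up of 0.21 in number 1 and 1.87 and 1.66 in numbers 2 and 3, and it was 1.76 without the arrays numbered 1.

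Amotl2, the angiomotin that ties YAP to cell junctions, was at 8.37, 9.21 and 8.86 in siCon_IFNg_GW, against 6.82, 7.05 and 7.19 in siCon_IFNg. The gene lies at chr8:112182060-112198032. Every array with GW exceeded every array without it. The difference was 1.79 ± 0.24 (3.47-fold), with 1.56, 2.16 and 1.67 within numbers.

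Dlc1, a tumour suppressor gene, was at 8.39, 8.26 and 7.90 in siCon_IFNg_GW, against 6.81, 6.90 and 6.90 in siCon_IFNg, a difference of 1.31 ± 0.17. Ajuba was at 8.75, 8.95 and 8.90 in siCon_IFNg_GW, against 7.75, 7.69 and 7.59 in siCon_IFNg, a difference of 1.19 ± 0.18. Lats2 was at 9.69, 9.74 and 9.30 in siCon_IFNg_GW, against 8.85, 8.38 and 8.74 in siCon_IFNg, a difference of 0.91 ± 0.19. In each of these 3 genes the groups were separate, and the difference was positive within all 3 numbers.

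The other 2 members behaved differently. Axl, a receptor tyrosine kinase that clears dying cells and dampens inflammation, was at 9.90, 9.32 and 9.34 in siCon_IFNg_GW, against 9.69, 9.25 and 9.29 in siCon_IFNg. Its groups overlapped, the difference was 0.11 ± 0.19, and it was -0.08 without siCon_IFNg_GW replicate 1. Its level followed the number of the array more than the treatment, with number 1 highest in all groups but siSHP_IFNg_GW. Ankrd1, a nuclear and sarcomeric ankyrin protein, was at 5.0, 5.25 and 5.44 in siCon_IFNg_GW, against 5.03, 4.78 and 4.62 in siCon_IFNg. All but 1 of these values lay under the background level of 5.34, so no fold is given.

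**Figure D1:**
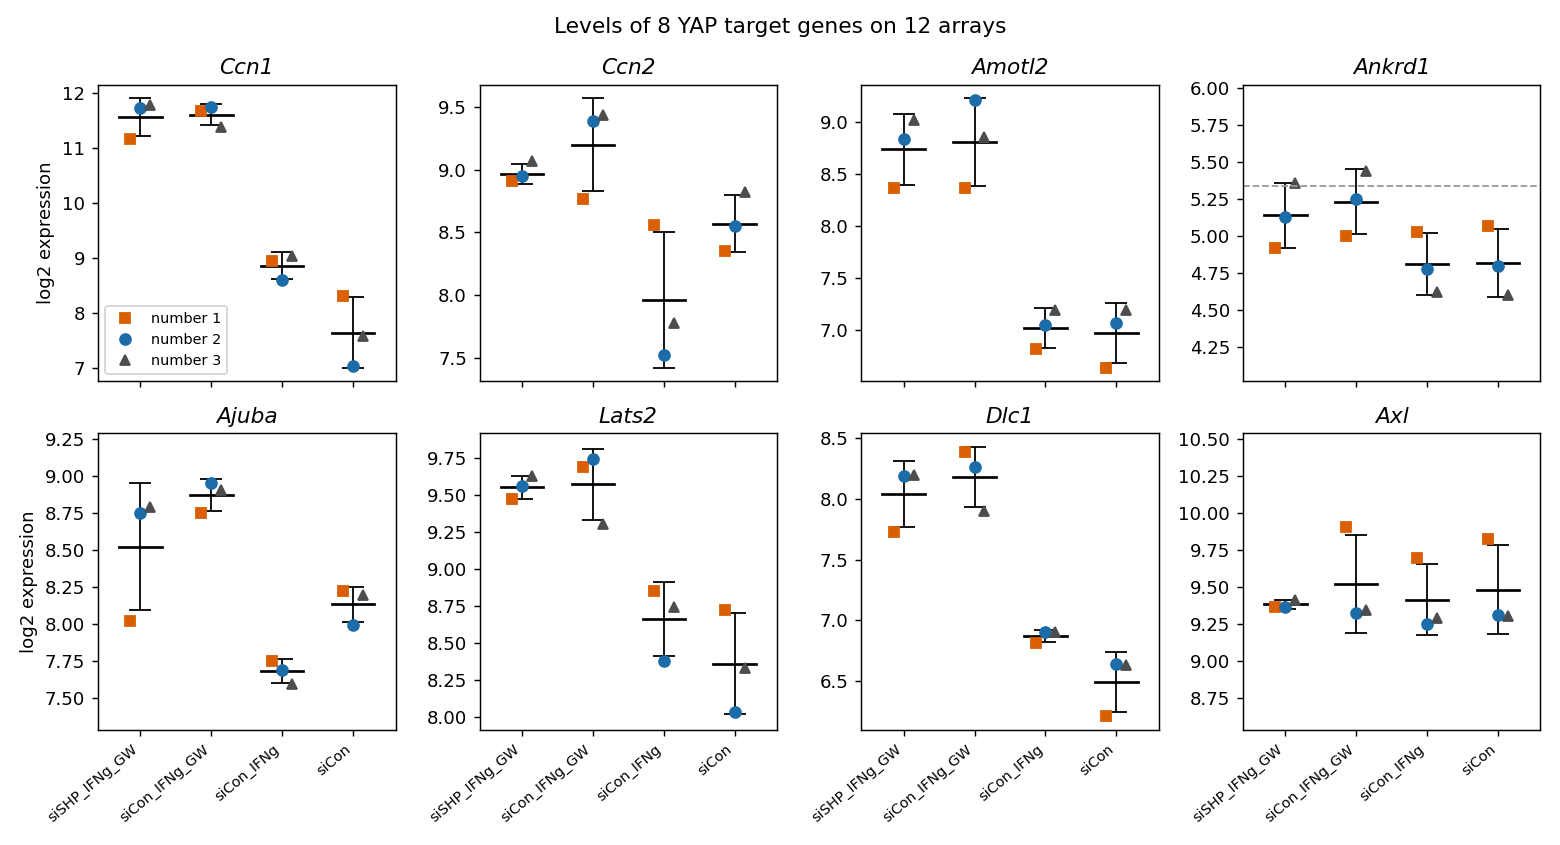
Log2 expression of each of the 8 measured genes (1 panel each, own axis of at least 2 units) on the 12 arrays, by group. Symbols mark the array number, black lines the mean and error bars the SD of 3 arrays; the dashed line in the Ankrd1 panel is the background level of 5.34. Ccn1, Amotl2, Dlc1 and Lats2 are high in both groups with GW and low in both without it, Ccn2 is lowest in siCon_IFNg, and Axl shows no step between groups.

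Over the set, 6 of 8 members were higher with GW with groups that did not overlap, and 0 were lower in this way. Of all genes, 8.05% were higher and 7.24% lower in this way; since the change of members with GW was known when the set was made, nothing is read from that contrast. The median difference of the 8 was 1.22, against 0.00 for all genes. In the same contrast 14 of 16 microglia markers had negative differences, with a median of -0.44, and 0 passed over all genes by limma (10 with the replicate number as a block, all lower, where 6.55% of all genes were called). Of the 11 meningeal and vascular markers 6 were positive and 5 negative, with a median of 0.03. The part of cell makeup in the differences of the members was not tested.

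The comparison of siSHP_IFNg_GW with siCon took its differences from no array of the contrast above. Its SE and p-values rest on a spread estimated over all 12 arrays. The comparison may still have been in view when the members were chosen, and arrays of the same number deviated together across groups. Its calls are therefore not independent evidence. It asks what IFN-γ and GW, with SHP siRNA, changed from cells with control siRNA alone, so siRNA, IFN-γ and GW differ together. Ccn1 was at 11.17, 11.74 and 11.79 in siSHP_IFNg_GW, against 8.30, 7.03 and 7.58 in siCon. It rose 15.3-fold, by 3.93 ± 0.29 (SE, n = 3 per group; limma adjusted p = 0.000156 over all genes), and by 2.87, 4.72 and 4.21 within numbers 1, 2 and 3. Amotl2 was at 8.37, 8.84 and 9.02 in siSHP_IFNg_GW, against 6.64, 7.07 and 7.19 in siCon. It rose by 1.78 ± 0.24 (limma adjusted p = 0.00834). Its differences within numbers, 1.73, 1.77 and 1.83, were nearly the same.

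Dlc1 was at 7.73, 8.19 and 8.20 in siSHP_IFNg_GW, against 6.21, 6.64 and 6.63 in siCon, and rose by 1.55 ± 0.17 (limma adjusted p = 0.00354). Lats2 was at 9.47, 9.56 and 9.63 in siSHP_IFNg_GW, against 8.72, 8.03 and 8.33 in siCon, and rose by 1.19 ± 0.19 (limma adjusted p = 0.0153). In both genes the groups were separate, and the difference was positive within each number. Ccn2 was at 8.91, 8.95 and 9.07 in siSHP_IFNg_GW, against 8.35, 8.55 and 8.82 in siCon. Its groups were also separate, but the difference of 0.40 ± 0.26 did not pass (limma adjusted p = 0.604; 95% interval -0.17 to 0.96).

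Ajuba was at 8.02, 8.75 and 8.79 in siSHP_IFNg_GW, against 8.22, 7.99 and 8.19 in siCon, and the groups overlapped through number 1. Its difference was 0.39 ± 0.18 over all arrays (limma adjusted p = 0.404) and 0.68 without the arrays numbered 1 (limma adjusted p = 0.00358). Axl was at 9.36, 9.36 and 9.41 in siSHP_IFNg_GW, against 9.82, 9.31 and 9.30 in siCon, with -0.10 ± 0.19 (95% interval -0.52 to 0.32). Ankrd1 remained near background at 4.92, 5.13 and 5.36 in siSHP_IFNg_GW, against 5.07, 4.80 and 4.60 in siCon.

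Thus 4 of 8 members were higher and 0 lower past the threshold, where 1.2% of all genes were called in either direction 0.661% higher and 0.539% lower. The call of Amotl2 was lost, narrowly, without siSHP_IFNg_GW replicate 2 or 3 or without siCon replicate 2 (adjusted p = 0.05, 0.0523 and 0.0506). That of Lats2 was lost without each of these 3 (adjusted p = 0.0711, 0.0901 and 0.0814), without siCon replicate 3 (0.066) and in a fit of the 2 groups alone (0.0539). With the replicate number as a block the count was again 4 (8.64% of all genes), and without the arrays numbered 1 it was 6 (10.7% of all genes), adding Ajuba and Ankrd1, although Ankrd1 lay near background. In this comparison 16 of 16 microglia markers had negative differences, with a median of -0.44 and 0 past the threshold by limma (10 with the block), and their part in the result was not tested.

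The corresponding comparison with control siRNA, siCon_IFNg_GW minus siCon, shares arrays with both contrasts above and is given as values only. The differences were 3.98 for Ccn1, 1.85 for Amotl2, 1.69 for Dlc1 and 1.21 for Lats2. They were 0.74 for Ajuba, 0.63 for Ccn2 and 0.04 for Axl. Similarly, siSHP_IFNg_GW minus siCon_IFNg, which also shares arrays, gave 2.71 for Ccn1, 1.72 for Amotl2, 1.17 for Dlc1 and 1.02 for Ccn2. It gave 0.89 for Lats2, 0.84 for Ajuba and -0.03 for Axl. Ankrd1, near background, is left out of both.

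The comparison of siSHP_IFNg_GW with siCon_IFNg_GW asks whether SHP siRNA altered the levels reached with IFN-γ and GW. Ccn1, at 11.17, 11.74 and 11.79 in siSHP_IFNg_GW against 11.68, 11.76 and 11.39 in siCon_IFNg_GW, had overlapping groups and a difference of -0.04 ± 0.29 (95% interval -0.67 to 0.58). Amotl2 had -0.07 ± 0.24 (-0.59 to 0.45), Lats2 -0.02 ± 0.19 (-0.43 to 0.39) and Dlc1 -0.14 ± 0.17 (-0.52 to 0.24). Ccn2 was at 8.91, 8.95 and 9.07 in siSHP_IFNg_GW, against 8.77, 9.39 and 9.44 in siCon_IFNg_GW, a difference of -0.23 ± 0.26 (-0.79 to 0.34). The lowest estimate was that of Ajuba, -0.35 ± 0.18 (-0.74 to 0.04), whose size came mostly from number 1 (-0.73, against -0.21 and -0.12 in numbers 2 and 3).

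None of the 8 members passed by limma (0 of 8, and 0 of 8 at an unadjusted p under 0.05), where 0.0% of all genes were called and 2.29% had an unadjusted p under 0.05. All 8 estimates were negative, with a median of -0.12 against -0.02 for all genes, and 4 of the 8 turned positive without the arrays numbered 1. The groups overlapped in all 8, where 6.47% of all genes had groups apart. With the replicate block 0 members passed, and 0 passed without the arrays numbered 1, where 267 genes (1.47%) were called.

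**Figure D2:**
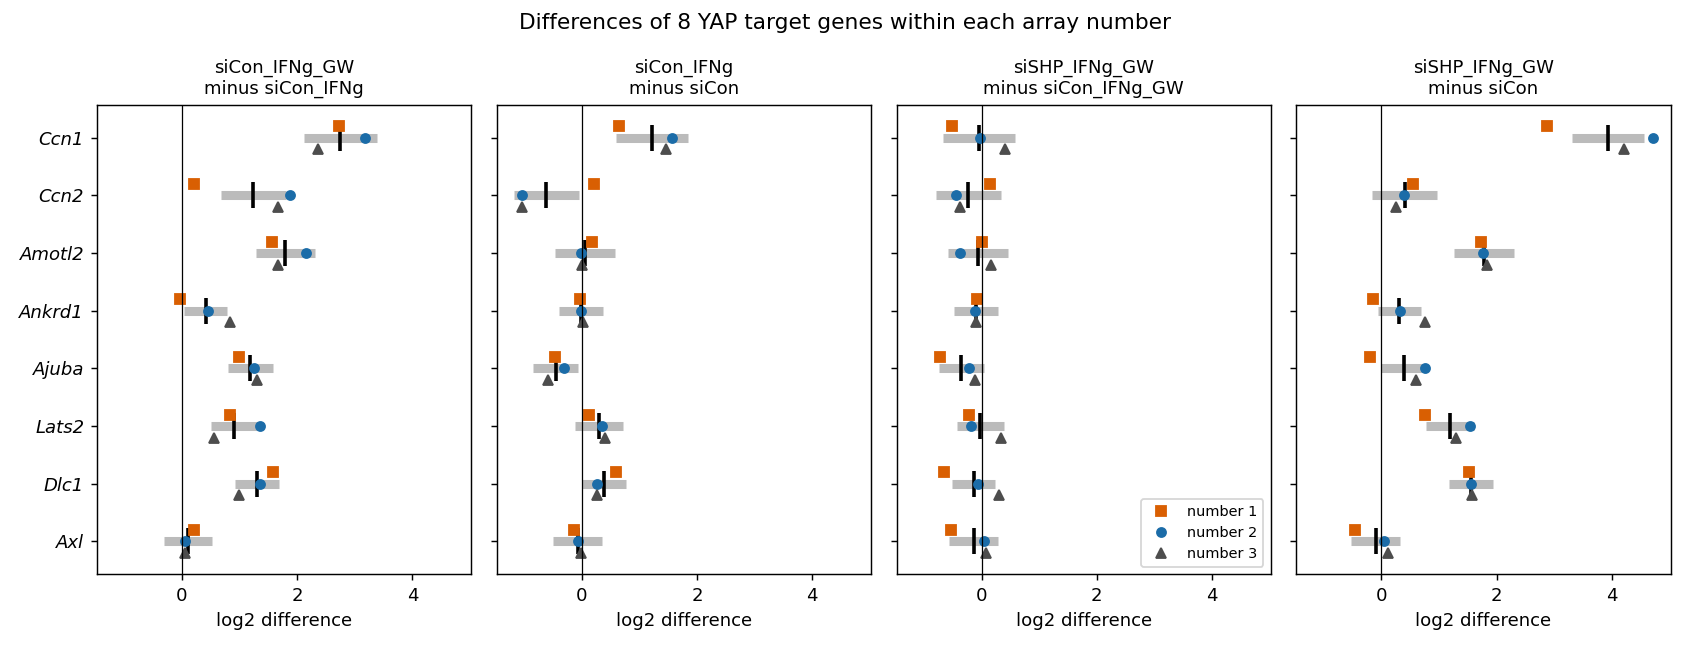
Log2 differences of the 8 genes in 4 comparisons (1 panel each, the group subtracted named last). Symbols are the differences within array numbers 1, 2 and 3, black ticks the limma estimate and grey bars its 95% interval. Ccn1 and Amotl2 lie right of 0 in every number in both panels that set GW against no GW, and all grey bars cross 0 in the panel for SHP siRNA.

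The comparison of siCon_IFNg with siCon asks what IFN-γ did without GW. The estimates had both signs, and none passed over all arrays. Ccn1 was at 8.95, 8.59 and 9.04 in siCon_IFNg, against 8.30, 7.03 and 7.58 in siCon, and all 3 arrays with IFN-γ were higher. Its difference was 1.22 ± 0.29 and did not pass over all arrays (limma adjusted p = 0.249; 0.0912 with the block). It was 0.65 in number 1 and 1.56 and 1.46 in numbers 2 and 3, and passed without the arrays numbered 1 (1.51, limma adjusted p = 0.00593) or without siCon replicate 1 alone (1.56, adjusted p = 0.04).

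Ccn2 was at 8.56, 7.52 and 7.78 in siCon_IFNg, against 8.35, 8.55 and 8.82 in siCon. Numbers 2 and 3 were lower with IFN-γ (-1.03 and -1.04), whereas number 1 had 0.21, and the difference over all arrays was -0.62 ± 0.26 (limma adjusted p = 0.838). Without the arrays numbered 1 it was -1.03 ± 0.12 (limma adjusted p = 0.00239). Ajuba was at 7.75, 7.69 and 7.59 in siCon_IFNg, against 8.22, 7.99 and 8.19 in siCon, so that its groups did not overlap. Its difference was -0.45 ± 0.18 (limma adjusted p = 0.785), and -0.45 ± 0.09 without the arrays numbered 1 (adjusted p = 0.0346).

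Amotl2 was at 6.82, 7.05 and 7.19 in siCon_IFNg, against 6.64, 7.07 and 7.19 in siCon, a difference of 0.05 ± 0.24 (95% interval -0.47 to 0.57). Dlc1 had 0.38 ± 0.17 (0.00 to 0.76) and Lats2 0.30 ± 0.19 (-0.11 to 0.71), neither past the threshold. Axl had -0.07 ± 0.19. In all, 0 of 8 members passed by limma, with or without the block, where 0.121% of all genes were called; 3 of 8 (Ccn1, Ccn2 and Ajuba) had an unadjusted p under 0.05, against 5.5% of all genes. Groups did not overlap in 3 (Ccn1 and Dlc1 higher, Ajuba lower), where 9.3% of all genes were apart in either direction. With the block 0.936% of all genes were called. Without the arrays numbered 1, 1 member was higher and 2 were lower, and 4.71% of all genes were called.

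The order of mean levels over the 4 groups differed between members. Ccn1 averaged 11.57 ± 0.34 (SD, n = 3 here and below) in siSHP_IFNg_GW and 11.61 ± 0.19 in siCon_IFNg_GW, which overlapped, then 8.86 ± 0.24 in siCon_IFNg and 7.64 ± 0.64 in siCon, which did not. Amotl2 averaged 8.74 ± 0.34 in siSHP_IFNg_GW, 8.81 ± 0.42 in siCon_IFNg_GW, 7.02 ± 0.19 in siCon_IFNg and 6.97 ± 0.29 in siCon, and both the upper and the lower pair overlapped. Ccn2 and Ajuba had their lowest mean in siCon_IFNg. Ccn2 averaged 7.96 ± 0.54 in siCon_IFNg and 8.57 ± 0.23 in siCon, which overlapped. Ajuba averaged 7.68 ± 0.08 in siCon_IFNg and 8.13 ± 0.12 in siCon, which did not.

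The 5 genes whose course over the 12 arrays was nearest to that of Ccn1 were Egr2, Fos, Gdf15, Zfp36 and Dusp1. Likeness was the root mean square difference in log2 units, after each gene's mean over the 4 arrays of a number was taken away. It was 0.40 for Egr2, 0.45 for Fos, 0.57 for Gdf15, 0.58 for Zfp36 and 0.63 for Dusp1, against a median of 1.77 over all genes. Nearest did not mean the same steps. With GW added to IFN-γ these genes differed by 2.34, 3.46, 2.84, 1.35 and 3.51 in that order, against 2.75 for Ccn1. In siCon_IFNg against siCon they differed by 1.63, 0.09, 0.47, 1.67 and 0.53, against 1.22 for Ccn1. Egr2 and Fos are immediate-early transcription factors, Gdf15 a stress-induced cytokine, Zfp36 an RNA decay factor and Dusp1 a MAP kinase phosphatase. For Amotl2 the nearest were Icam4 (0.20), Coq10b (0.21), Per1 (0.22), Irs2 (0.22) and Dusp8 (0.23), against a median of 0.92. None of the 10 is in the YAP target set, nor did the lists below hold any of them.

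Other genes known to respond to YAP and TAZ were set beside the members. Of 22 such genes 17 were measured. With GW added to IFN-γ, 0 of the 17 passed by limma over all genes, where 0.886% were called, 14 were positive and the median was 0.16, against 0.00 for all genes. With the block 3 were higher (6.55% of all genes called), and without the arrays numbered 1 there were 6 higher and 1 lower (11.5% called). Gadd45b, a stress gene of growth arrest, had the largest difference, 1.11 ± 0.49 (limma adjusted p = 0.423; 0.0239 with the block). The kinase gene Nuak2 had 0.97 ± 0.32 (limma adjusted p = 0.245, and 0.0124 with the block). The vasoconstrictor gene Edn1 had 0.86 ± 0.43 (limma adjusted p = 0.501, and 0.28 with the block). Its differences had opposite signs, with -0.88 in number 1 against 2.05 and 1.42 in numbers 2 and 3. Without the arrays numbered 1 it had 1.73 ± 0.15 (limma adjusted p = 0.000308). In siSHP_IFNg_GW against siCon, 1 of the 17 rose, where 1.2% of all genes were called. With the block 2 were higher and 1 lower (8.64% of all genes called), and without the arrays numbered 1 there were 5 higher and 0 lower (10.7% called). It was Gadd45b, at 11.62, 10.69 and 10.72 in siSHP_IFNg_GW against 8.82, 8.41 and 8.41 in siCon, by 2.47 ± 0.49 (limma adjusted p = 0.0429).

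The transcription factors of the pathway and their cofactors were tested next. Of 9 measured YAP, TAZ, TEAD and VGLL genes, 0 passed in the 3 tested comparisons or with GW, where 0.0% to 1.2% of all genes were called. Among the 9, 2 genes (Vgll1 and Vgll2) averaged under the background level of 5.34. With GW 1 was higher with the block (6.55% of all genes called) and 3 without the arrays numbered 1 (11.5% called). In siSHP_IFNg_GW against siCon these counts were 0 (8.64% called) and 1 (10.7% called). In siCon_IFNg against siCon 0 passed with the block (0.936% called), and 1 was lower without the arrays numbered 1 (4.71% called). Yap1 was at 9.28, 8.85 and 8.85 in siCon_IFNg_GW, against 9.14, 8.88 and 8.99 in siCon_IFNg, a difference of -0.01 ± 0.18. Wwtr1, which encodes TAZ, had 0.18 ± 0.11 and Tead1 had 0.24 ± 0.15. These 3 were named after their values were seen. The largest difference with GW in this list was that of Vgll4, which competes with YAP for TEAD (0.66 ± 0.32, adjusted p = 0.475; 0.0217 with the block). It was followed by Tead3 with 0.49 and Vgll3 with 0.33.

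Of 21 measured Hippo kinases and upstream regulators, 0 passed in any of these 4 comparisons, where 0.0% to 1.2% of all genes were called, so that a count of 0 says little. With GW 1 was higher with the block (6.55% of all genes called), and 2 were higher and 1 lower without the arrays numbered 1 (11.5% called). In siSHP_IFNg_GW against siCon there were 1 higher and 1 lower with the block (8.64% called). Without the arrays numbered 1 there were 2 higher and 1 lower (10.7% called). Their median with GW was 0.09, and the largest differences were those of Strn3, a scaffold of the phosphatase that acts on the Hippo kinases (0.51 ± 0.12, adjusted p = 0.0827; 0.0223 with the block), the cadherin Dchs1 (-0.33) and Limd1, a relative of Ajuba (0.30). The other CCN genes had a median of -0.04 with GW over 4 members, with 0 past the threshold. Ccn3 had -0.29, with -0.84 in number 1 against -0.06 and 0.04 in numbers 2 and 3, and Ccn4 had 0.25. Ccn6 had -0.13, at means of 5.25 in siCon_IFNg_GW and 5.38 in siCon_IFNg, near the background level of 5.34.

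Genes of SRF and its MRTF cofactors, an actin-driven route that shares targets with YAP, had a median of 0.20 with GW over 11 measured members, with 0 past the threshold, where 0.886% of all genes were called. With the block 4 of the 11 were higher, where 6.55% of all genes were called, and without the arrays numbered 1 there were 3 (11.5% called). In siSHP_IFNg_GW against siCon 0 passed (1.2% called), while 3 were higher and 1 lower with the block (8.64% called), and 4 higher and 1 lower without the arrays numbered 1 (10.7% called). Srf itself was at 9.36, 8.76 and 8.45 in siCon_IFNg_GW, against 8.40, 7.50 and 7.54 in siCon_IFNg, so that the groups were separate. Its difference was 1.04 ± 0.27 (limma adjusted p = 0.131; 0.00546 with the block). Mrtfa had 0.48 and the focal adhesion gene Zyx 0.44.

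**Figure D3:**
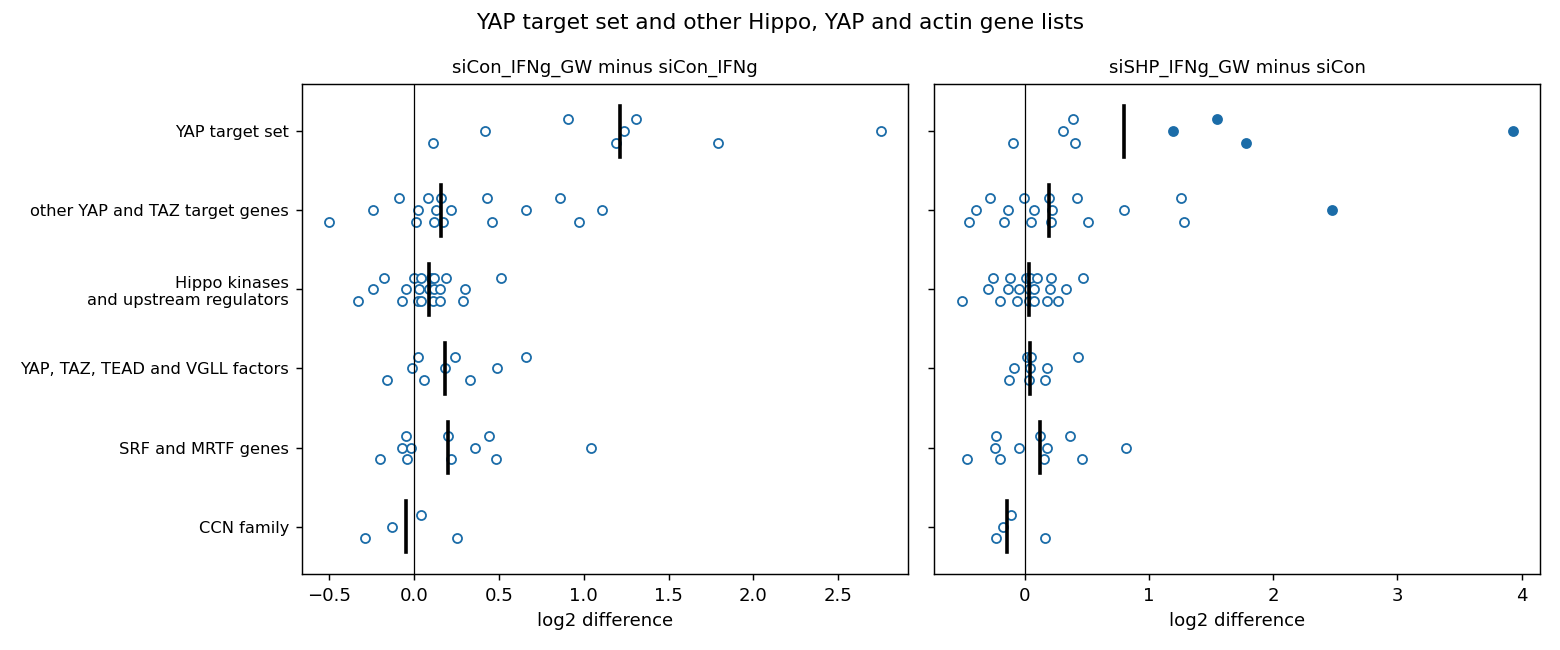
Log2 differences of single genes (circles) in the YAP target set and in 5 other lists, for siCon_IFNg_GW minus siCon_IFNg (left) and siSHP_IFNg_GW minus siCon (right). Filled circles passed a limma adjusted p under 0.05 over all genes, black bars are list medians, and the YAP target set was not tested in the left panel and is drawn open there. In the right panel 4 of 8 genes of the set and 1 gene of the other lists, Gadd45b (2.47), are filled; the left panel is a description for the set, since its change with GW was in view when it was made.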

How the data were processed

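RNA from 12 samples was labelled for whole-transcript arrays, per the labels' protocols. The deposited table holds log2 expression values summarised by the authors; the log base was inferred from their range (1.01 to 13.43), and how the arrays were summarised and scaled is not stated in the labels or the file. The table had 36685 rows, of which 18511 were paired with 1 gene, 575 with several and 17599 with none. By Entrez ID 18394 rows matched RefSeq (GRCr8). For 291 genes with several rows the row with the highest mean was used. Columns of other samples numbered 0.

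The 4 group means over all 12 arrays were fitted with limma 3.58.1 (lmFit, contrasts, eBayes) in R 4.3.3 for 18166 genes, and an adjusted p under 0.05 (Benjamini-Hochberg) over all genes was the threshold. The fit was tested on simulated data in which arrays varied independently. Such data cannot check its SE or adjusted p where arrays of the same number deviate together. Depth does not apply to arrays, and 3 arrays per group limit the precision. Alternatives were the replicate number as a block, no arrays numbered 1, median centring, the 2 groups alone, no dim genes, a variance trend, the mean of a gene's rows and each array left out.

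Deviations from group means correlated between arrays of the same number by 0.63 to 0.77, 0.48 to 0.58 and 0.43 to 0.55 in numbers 1, 2 and 3. Differences were therefore also given within numbers, and the number was a block in 1 alternative fit. The main fit had no block, so its SE, 95% intervals and adjusted p ignore this link. The SE was 0.24 for Amotl2 and 0.29 for Ccn1 in the main fit, against 0.12 and 0.28 with the block. The labels do not say what the numbers mark. Named genes were the members, those of each other list that passed (at most 6) or had the 3 largest differences with GW, Nr0b2, and the 5 nearest in course to Ccn1 and to Amotl2. Members and lists were chosen with earlier results of these data known. 1 further gene list was left out and is not reported here. Figures used matplotlib 3.10.9.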

Additional observations from a re-analysis of the deposited data

How the results depend on the processing

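The count of members past the threshold kept within 1.5 times its value under most alternatives. In siCon_IFNg against siCon it was 0, and 3 without the arrays numbered 1; leaving out single arrays gave 0 to 1. In siSHP_IFNg_GW against siCon it was 4, 4 with the replicate block and 2 to 5 with single arrays left out. In siSHP_IFNg_GW against siCon_IFNg_GW it was 0 under every alternative run. The count of members apart with GW was 6, and 6 to 8 with single arrays left out. It was 7 with the block and 8 without the arrays numbered 1. Fewer arrays in a group make separation easier for every gene. The share of all genes apart is not given for these settings, so nothing is read from a higher count. The replicate block changed no call of a member in the 3 tested comparisons.

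Calls over all genes moved more, and the cause was not tested. With GW there were 161, against 1189 with the block, 2081 without the arrays numbered 1, 79 after centring, 4 with the 2 groups alone and 27 to 412 with single arrays left out. In siSHP_IFNg_GW against siCon there were 218, against 1570, 1937, 109, 100 and 21 to 152 in the same order. In siCon_IFNg against siCon there were 22, against 170, 856, 15, 7 and 2 to 66. Centring raised the share of calls that were higher to 68.8% from 55.0% and to 80.0% from 68.2% in those 2 comparisons, and moved no member by more than 0.02.

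Signs turned for small differences of members that had not passed or were not tested. Without the arrays numbered 1 the difference of Amotl2 in siCon_IFNg against siCon was -0.01 and that of Axl in siSHP_IFNg_GW against siCon was 0.08; in siSHP_IFNg_GW against siCon_IFNg_GW Axl had 0.06, Ccn1 0.19, Dlc1 0.12 and Lats2 0.08. With single arrays left out, siCon_IFNg against siCon gave -0.11 to 0.16 for Amotl2, -0.12 to 0.11 for Ankrd1 and -0.21 to 0.11 for Axl. In siSHP_IFNg_GW against siCon_IFNg_GW they gave -0.29 to 0.13 for Amotl2, -0.21 to 0.01 for Ankrd1, -0.24 to 0.05 for Axl, -0.15 to 0.15 for Ccn1, -0.28 to 0.02 for Dlc1 and -0.16 to 0.06 for Lats2. Axl had -0.08 to 0.25 with GW and -0.19 to 0.07 in siSHP_IFNg_GW against siCon.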
